A study of Mus musculus with 16 samples.

Results

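The genes described here set the level of malonyl-CoA and the synthesis of new fatty acids. They are Acaca, Acacb, Mlycd, Mid1ip1, Fasn, Acly, Scd1, Scd2 and Srebf1. Every probe on the arrays that was not a control and that carried one of these 9 names, or a synonym of one, was taken, which gave 15 of 41174 probes for 9 of 19505 named genes. Probes were matched by gene name alone, and the 9 genes themselves were chosen with earlier results of these data known. A probe was tested where the scanner software marked its heart signal as well above background on at least 4 of 16 arrays, and 8 of the 15 probes passed, 1 for each gene except Acaca. All 8 passed that mark on 16 of 16 arrays, and none was saturated.

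The arrays came from a study of pressure overload in mice that lack CHIP, the cochaperone and ubiquitin ligase encoded by Stub1. The 4 groups were CHIP-/- mice after trans-aortic banding (TAB), CHIP-/- mice after a sham operation, wild-type (WT) mice after TAB and WT mice after a sham operation. TAB narrows the aorta, so that the left ventricle pumps against a higher pressure. All animals were of strain 129Sv, heart ventricle was taken 1 week after surgery, and the labels call the 4 arrays of each group biological replicates. Sex, age and how the mutant was made are not given in the labels. Each array held heart RNA in Cy5 and, in Cy3, one reference RNA from whole neonatal mice of mixed 129Sv and C57BL/6 background. A level is therefore the log2 ratio of heart over reference, and its size says nothing of which of 2 genes is more abundant.

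Malonyl-CoA is the building block of fatty acid synthesis, and it also inhibits carnitine palmitoyltransferase I, the enzyme that commits long-chain fatty acids to oxidation in mitochondria. Acetyl-CoA carboxylases make it, and malonyl-CoA decarboxylase removes it. In heart, which burns far more fatty acid than it makes, acetyl-CoA carboxylase 2 (Acacb) at the outer mitochondrial membrane is known mainly for this control of oxidation, whereas acetyl-CoA carboxylase 1 (Acaca) in the cytosol feeds fatty acid synthase.

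Acacb, Mlycd and Mid1ip1 were the members that fell after TAB in both genotypes with no overlap between TAB and sham arrays. Their promoters are shown for that reason, as RefSeq places them on build GRCm38.p6, from 250 bases before to 50 bases after a start site. The windows are chrX:10717115-10717414 for Mid1ip1, chr5:114165268-114165567 for Acacb and chr8:119394644-119394943 for Mlycd, all on the plus strand and 5′ to 3′. The Acacb window lies inside the gene, which begins at chr5:114146321, and so surrounds an internal start site. Which start site the heart RNA used was not tested. Capitals mark matches, on either strand, to the E-box CACGTG, the CCAAT box, the nuclear receptor core AGGTCA, the estrogen-related receptor element AAGGTCA, which contains that core, a direct repeat of the core with 1 base between, or the sterol regulatory element TCACNCCAC.
Mid1ip1: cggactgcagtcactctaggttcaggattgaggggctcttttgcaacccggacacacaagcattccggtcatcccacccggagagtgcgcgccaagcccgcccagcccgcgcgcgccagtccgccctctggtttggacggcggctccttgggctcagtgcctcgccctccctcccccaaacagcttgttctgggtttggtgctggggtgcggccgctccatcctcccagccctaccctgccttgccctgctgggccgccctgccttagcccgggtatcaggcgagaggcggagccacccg
Acacb: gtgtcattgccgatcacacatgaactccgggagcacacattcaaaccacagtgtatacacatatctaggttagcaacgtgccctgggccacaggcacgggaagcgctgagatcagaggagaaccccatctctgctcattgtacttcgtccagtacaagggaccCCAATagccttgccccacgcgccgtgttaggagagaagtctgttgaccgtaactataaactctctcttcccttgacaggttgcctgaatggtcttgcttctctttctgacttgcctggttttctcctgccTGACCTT
Mlycd: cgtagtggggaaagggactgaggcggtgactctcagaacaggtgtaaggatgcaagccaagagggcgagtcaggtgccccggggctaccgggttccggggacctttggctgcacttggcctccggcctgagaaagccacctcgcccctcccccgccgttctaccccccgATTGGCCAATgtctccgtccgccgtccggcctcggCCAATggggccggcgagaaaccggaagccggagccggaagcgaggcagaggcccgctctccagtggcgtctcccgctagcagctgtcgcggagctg

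The Mlycd window held 3 CCAAT matches and the Acacb window 1, against matches in 37.4% of 32851 promoters of this length. The Acacb window also ended in 1 match to AAGGTCA, which 4.72% of promoters held, while the shorter core AGGTCA lay in 16.3%. The Mid1ip1 window held none of the letters searched, and no window of the 3 held CACGTG (7.15% of promoters) or TCACNCCAC (1.24%). G and C made up 68% of the Mid1ip1 and Mlycd windows and 51.7% of the Acacb window. A match describes the letters only.

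In the heart channel, 27.0% to 37.7% of spots per array were well above background, and arrays of a group correlated at 0.950 to 0.979. All 4 arrays of a group sat on a slide of their own, 4 slides in all, so an effect of slide cannot be told apart from the comparisons below. Stub1 had log2 ratios of -1.47 to -1.17 in CHIP-/- TAB and -1.39 to -1.24 in CHIP-/- sham hearts, against -0.41 to 0.25 in WT TAB and 0.30 to 0.43 in WT sham hearts. The 9 cardiomyocyte markers that passed, of 10 (all but Myl2), averaged 3.85 to 4.53 above the reference. The 8 fibroblast markers, kept by the same filter on heart signal, averaged -2.30 to -0.02. That filter favours genes bright in heart, so this is a limited check of the heart label. Atrial Myl7 reached 1.89 to 3.82 on CHIP-/- sham replicate 1 and WT sham replicates 1 and 3, against -1.99 to 0.17 elsewhere. The 3 probes for Y-linked genes were well above background only on CHIP-/- sham replicates 2 and 4 and WT sham replicate 4, and thus on no TAB array. Where leaving out either set of 3 arrays changed the call of a member or of a neighbouring gene named below, the value without them, or its adjusted p, is given.

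Mid1ip1 encodes a cytosolic protein that promotes the polymerization and activity of acetyl-CoA carboxylases. In CHIP-/- hearts it had log2 ratios of 1.34, 1.78, 1.01 and 1.65 after TAB, against 2.94, 2.87, 3.02 and 2.82 after sham. In WT hearts it had 1.87, 1.61, 1.66 and 0.88 after TAB, against 2.96, 2.66, 2.89 and 2.67 after sham. All 8 TAB arrays lay below all 8 sham arrays, and WT TAB replicate 4 was the lowest of the 16. The difference was -1.47 (SE 0.15, adjusted p = 5.07e-08, limma) in CHIP-/- hearts, a level 2.76-fold lower after TAB, and -1.29 (SE 0.15, adjusted p = 1.06e-06, limma) in WT hearts, 2.45-fold lower. These stood at percentiles 0.163 and 0.0749 of the differences of all 14684 tested probes. Without WT TAB replicate 4 the WT difference was -1.08.

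Acacb makes malonyl-CoA at the mitochondrion. It had log2 ratios of 0.10, 0.30, 0.22 and 0.39 in CHIP-/- TAB hearts, against 1.15, 1.35, 1.22 and 1.09 in CHIP-/- sham hearts. In WT hearts it had 0.81, 0.62, 0.69 and 0.70 after TAB, against 1.27, 1.19, 1.22 and 1.12 after sham. The sham groups covered the same range, WT TAB hearts lay below them, and CHIP-/- TAB hearts lay below WT TAB hearts without overlap. Acacb fell by 0.95 (SE 0.072, adjusted p = 3.52e-10, limma) in CHIP-/- hearts and by 0.49 (SE 0.072, adjusted p = 1.12e-05, limma) in WT hearts.

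Mlycd encodes malonyl-CoA decarboxylase, which turns malonyl-CoA back into acetyl-CoA. Its log2 ratios were -0.15, -0.04, -0.11 and 0.12 in CHIP-/- TAB hearts, against 0.75, 0.81, 0.96 and 0.52 in CHIP-/- sham hearts. In WT hearts they were 0.41, 0.20, 0.44 and 0.26 after TAB, against 0.87, 0.65, 0.95 and 0.58 after sham. The order of the groups was that of Acacb, with CHIP-/- TAB lowest and both sham groups highest. Mlycd fell by 0.80 (SE 0.090, adjusted p = 1.26e-07, limma) in CHIP-/- hearts and by 0.44 (SE 0.090, adjusted p = 0.000563, limma) in WT hearts. Without the 3 arrays with high Myl7 the WT difference was -0.29 and no longer passed (adjusted p = 0.0512).

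Whether the enzyme that makes malonyl-CoA and the enzyme that removes it changed unequally was tested on the difference of their log2 ratios within each array. Its size has no meaning of its own, and it was compared only between groups. The Acacb minus Mlycd difference averaged 0.30 ± 0.05 in CHIP-/- TAB hearts and 0.45 ± 0.14 in CHIP-/- sham hearts (SD, n = 4 each, exact two-sided permutation p = 0.143). In WT hearts it averaged 0.38 ± 0.09 after TAB and 0.43 ± 0.13 after sham (SD, n = 4 each, exact two-sided permutation p = 0.571). With the pair of desaturases below this made 4 tests, with adjusted p of 0.342 and 0.714, and the smallest p that 4 against 4 allows is 0.0286. An unequal change of the 2 genes was therefore not detected, which does not show that they changed alike.

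**Figure D1:**
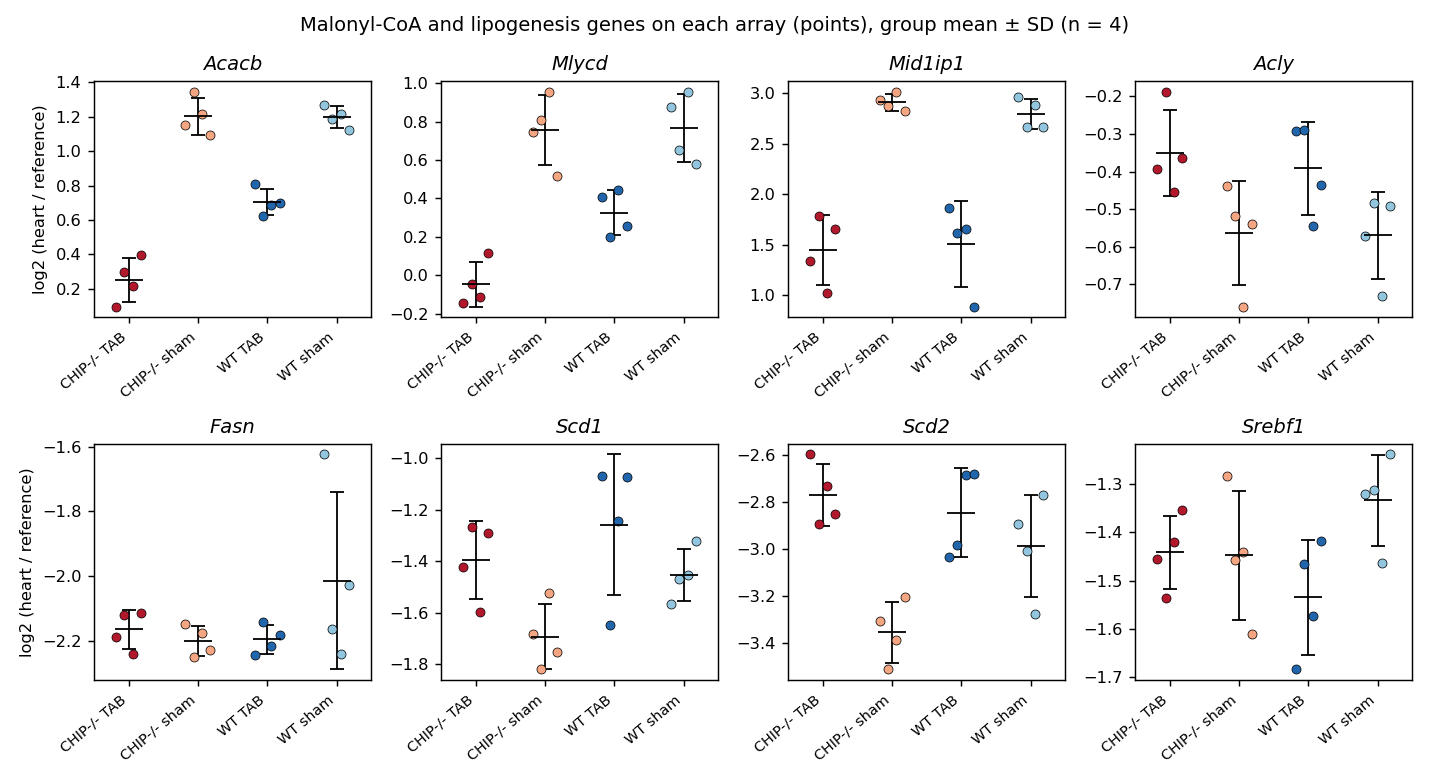
Log2 ratio of heart over reference RNA (vertical axes, a separate scale for each gene) on each array (points) of the 4 groups (horizontal axis), for the 8 tested genes, with group mean ± SD (bars, n = 4). Acacb, Mlycd and Mid1ip1 were lower on all TAB arrays than on all sham arrays of the same genotype, and Acacb ran from 0.10 to 0.39 in CHIP-/- TAB hearts, below the 0.62 to 0.81 of WT TAB hearts.

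The spot signals behind these ratios were also read in each channel. The heart signal of Mid1ip1, before any normalization, was 443 to 640.0 in CHIP-/- TAB and 2120.1 to 2316 in CHIP-/- sham hearts. It was 355 to 813 in WT TAB and 1512 to 3092 in WT sham hearts. The reference signal at the same spot was 370 to 489 over all 16 arrays. Acacb had heart signals of 202 to 248 in CHIP-/- TAB, 564 to 620.2 in CHIP-/- sham, 281 to 368 in WT TAB and 523 to 712 in WT sham hearts, over a reference signal of 361 to 426. The reference channel thus stayed within a narrow range at both spots while the heart channel separated TAB from sham. Unnormalized heart signals in CHIP-/- hearts were also lower after TAB for Fasn and Srebf1, whose ratios were not called there. Fasn had 237 to 287 after TAB and 321 to 367 after sham, and Srebf1 had 195 to 316 and 341 to 429. Signals before normalization therefore do not by themselves place the change of Mid1ip1 and Acacb.

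**Figure D2:**
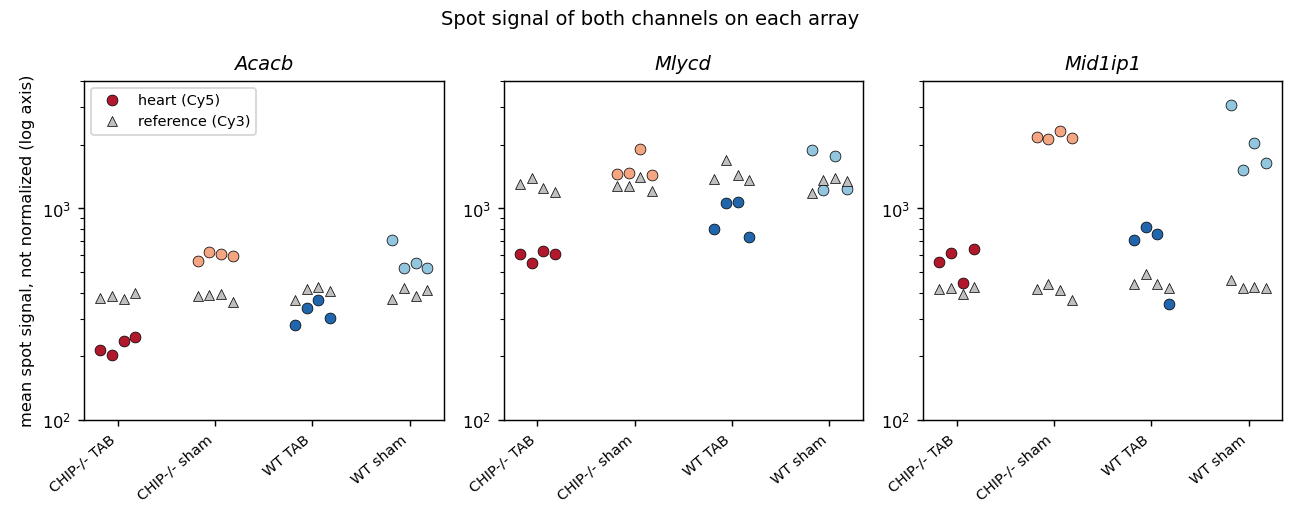
Mean spot signal before normalization (vertical axis, log scale) on each array of the 4 groups (horizontal axis) for Acacb, Mlycd and Mid1ip1, with the heart channel as circles and the reference channel as grey triangles. Heart signals of Mlycd were 550.0 to 630.0 in CHIP-/- TAB and 1433 to 1920 in CHIP-/- sham hearts, while the reference stayed between 1184 and 1694 on all 16 arrays.

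More cardiomyocyte markers fell than rose after TAB, which is the direction of these 3 genes. By the brightest probe of each, 7 of 9 were lower and 1 higher after TAB in CHIP-/- hearts, against 22.9% lower and 24.1% higher over all 9962 genes measured. In WT hearts 5 of 9 were lower and none higher, against 16.9% lower and 18.7% higher over all genes. There Myl3, Tnnc1 and Tnnt2 had 0.15, 0.15 and 0.13 without passing. The marker called higher in CHIP-/- hearts was Tnnt2, cardiac troponin T (0.32, adjusted p = 0.000222, limma). Its second probe fell by 1.61 (adjusted p = 3.43e-08, limma) in CHIP-/- hearts and by 1.06 (adjusted p = 2.68e-05, limma) in WT hearts, so that its direction is not settled. Ryr2 counts as lower in both genotypes, but its second probe gave 0.19 (adjusted p = 0.404, limma) in CHIP-/- and -0.26 (adjusted p = 0.283, limma) in WT hearts. Further probes of Myh6, Atp2a2 and Myl3 also passed as lower in CHIP-/- hearts. The mean level of the 9 markers was 3.85 to 4.06 in CHIP-/- TAB and 3.97 to 4.52 in CHIP-/- sham hearts, and 4.11 to 4.42 in WT TAB and 4.38 to 4.53 in WT sham hearts. Fibroblast markers rose in 7 of 8 cases in either genotype, and macrophage markers in 7 of 8 in CHIP-/- and 6 of 8 in WT hearts. Second probes of Col1a1 and Lyz2 rose in CHIP-/- hearts (0.87 and 0.44). In WT hearts they did not pass (0.14, adjusted p = 0.318, and 0.22, adjusted p = 0.107, limma). Of 6 endothelial markers, 3 rose and 1 fell in CHIP-/- hearts, and 4 rose and 1 fell in WT hearts. A second probe of Cdh5, counted as risen in both, passed in neither (0.09 and 0.14). The part of these cell types in the falls of Mid1ip1, Acacb and Mlycd was not tested. In whole ventricle, fewer cells of a type and less RNA per cell cannot be told apart.

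Acly encodes ATP-citrate lyase, which supplies cytosolic acetyl-CoA, and Fasn encodes fatty acid synthase, which joins malonyl units into palmitate. Acly had log2 ratios of -0.45 to -0.19 in CHIP-/- TAB and -0.76 to -0.44 in CHIP-/- sham hearts, a difference of 0.21 (SE 0.092) that did not pass (adjusted p = 0.0627, limma). It passed without the 3 arrays with high Myl7 (0.26, adjusted p = 0.0428) and without CHIP-/- sham replicate 1 of these alone (0.26, adjusted p = 0.0424). In WT hearts it had -0.55 to -0.29 after TAB and -0.73 to -0.48 after sham, a difference of 0.18 (adjusted p = 0.143, limma). Its heart signals of 68.9 to 90.7 stood little above the local background, which limits this value. Fasn had -2.24 to -2.11 in CHIP-/- TAB and -2.25 to -2.15 in CHIP-/- sham hearts, a difference of 0.04 (adjusted p = 0.771, limma). In WT hearts Fasn had -2.24 to -2.14 after TAB and -2.24 to -1.62 after sham, a difference of -0.18 (adjusted p = 0.114, limma). The wide WT sham range came from replicate 1, without which that difference was -0.05. It passed without WT sham replicate 3 (-0.26, adjusted p = 0.0289) and with each array centred on its median in place of loess (-0.54, adjusted p = 0.00261).

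Scd1 and Scd2 encode stearoyl-CoA desaturases, which place the first double bond in newly made saturated fatty acids. Scd2 had log2 ratios of -2.60, -2.89, -2.73 and -2.85 in CHIP-/- TAB hearts, against -3.31, -3.51, -3.39 and -3.20 in CHIP-/- sham hearts. All 4 TAB arrays lay above all 4 sham arrays. Scd2 rose by 0.58 (SE 0.099, adjusted p = 4e-05, limma), a level 1.50-fold higher. In WT hearts it had -3.03, -2.98, -2.69 and -2.68 after TAB, against -2.90, -3.01, -3.27 and -2.77 after sham, and the groups overlapped (difference 0.14, adjusted p = 0.294, limma).

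Scd1 had -1.42, -1.27, -1.60 and -1.29 in CHIP-/- TAB hearts, against -1.68, -1.82, -1.52 and -1.75 in CHIP-/- sham hearts. TAB replicate 3 lay below sham replicate 3, so the groups overlapped. Scd1 rose by 0.30 (SE 0.11, adjusted p = 0.0265, limma), and this call was lost (adjusted p = 0.0641 to 0.083) without any 1 of CHIP-/- TAB replicates 2 and 4 and CHIP-/- sham replicates 2 and 4. The difference was 0.21 (adjusted p = 0.249) without the 3 arrays with Y-linked transcripts and 0.30 (adjusted p = 0.0524) without the 3 with high Myl7. Heart signals of Scd1 were only 65.5 to 103. In WT hearts Scd1 had -1.65 to -1.07 after TAB and -1.56 to -1.32 after sham, a difference of 0.19 (adjusted p = 0.171, limma), which became 0.32 (adjusted p = 0.0103) without WT TAB replicate 2. The Scd1 minus Scd2 difference averaged 1.38 ± 0.25 in CHIP-/- TAB and 1.66 ± 0.17 in CHIP-/- sham hearts (SD, n = 4 each, exact two-sided permutation p = 0.171), and 1.59 ± 0.27 in WT TAB and 1.54 ± 0.21 in WT sham hearts (SD, n = 4 each, exact two-sided permutation p = 0.714).

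Several but not all adipocyte markers rose after TAB in each genotype, while Scd1 and Scd2 passed only in CHIP-/- hearts. For neither Scd1 nor Scd2 was the difference between genotypes called. Of 12 markers, 8 were measured above background, and of these 7 rose in CHIP-/- hearts and 4 in WT hearts, against 24.1% and 18.7% of all genes. Fabp4, a fatty acid binding protein, rose by 0.77 (adjusted p = 2.89e-06, limma) in CHIP-/- and by 1.55 (adjusted p = 3.06e-10, limma) in WT hearts. Its interaction of -0.78 (adjusted p = 0.00313, limma) was the only one called among the 8 markers, whose median interaction was 0.10. The interaction of Scd2 was 0.44 and did not pass. The mean log2 ratio of the 8 markers was -2.62 to -2.27 in CHIP-/- TAB and -3.35 to -2.75 in CHIP-/- sham hearts. In WT hearts it was -2.46 to -2.36 after TAB and -2.92 to -2.76 after sham. Among the defining markers, Adipoq rose by 0.22 (adjusted p = 0.0353, limma) in CHIP-/- hearts and had 0.04 (adjusted p = 0.774) in WT hearts. Ucp1, the uncoupling protein of brown fat, had -0.01 (adjusted p = 0.925) and -0.02 (adjusted p = 0.872), and Retn, Lep, Cidea and Adrb3 were not measured above background. All 3 nerve and glia markers that passed, of 7, also rose in both genotypes by their brightest probes. A second probe of 1 of them, Mbp, gave 0.17 (adjusted p = 0.0769, limma) in CHIP-/- and 0.06 (adjusted p = 0.564, limma) in WT hearts. The part of such cells in the rise of Scd1 and Scd2 was not tested.

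Srebf1 encodes the transcription factor SREBP-1, which drives many genes of fatty acid synthesis. It had log2 ratios of -1.45, -1.54, -1.42 and -1.35 in CHIP-/- TAB hearts, against -1.28, -1.46, -1.44 and -1.61 in CHIP-/- sham hearts. The groups overlapped throughout (difference 0.01, SE 0.073, adjusted p = 0.956, limma). In WT hearts it had -1.68, -1.47, -1.57 and -1.42 after TAB, against -1.32, -1.31, -1.46 and -1.24 after sham, and it fell by 0.20 (SE 0.073, adjusted p = 0.0366, limma). The WT groups overlapped too, and the call was lost under 9 of 29 other settings, with adjusted p up to 0.127. One of these left out the 3 arrays with Y-linked transcripts (-0.17, adjusted p = 0.0984).

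Acaca, the cytosolic carboxylase, could not be followed. For heart RNA, none of its 4 probes was well above background on any array, although 1 of the 4 was so in the reference channel on 16 of 16 arrays, where its heart signal was 43.6 to 60.3. No level or fold is given for it, and Acacb could not be set against it. The remaining 3 untested probes were a second probe each for Acacb, Acly and Fasn, well above background in the heart on 0, 0 and 1 arrays.

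Over the members, 5 of 8 passed the test after TAB in CHIP-/- hearts, 2 higher and 3 lower, against 44.0% of all 14684 tested probes (21.3% higher, 22.7% lower). TAB and sham arrays did not overlap for 4 of 8, against 39.7% of all. In WT hearts 4 of 8 passed, all lower, against 33.4% of all probes (17.1% lower), and 3 of 8 did not overlap, against 30.0%. The members' median difference was 0.02 in CHIP-/- and -0.19 in WT hearts, beside -0.02 and -0.01 over all tested probes. In WT hearts the share of members called lower was thus above that of all probes, with none higher, and in CHIP-/- hearts the share called was above it too. These shares were not tested, and with 8 members a single gene moves them widely. The members were also chosen with earlier results of these data known, which limits what a share above that of all probes can show.

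The loess step sets what counts as no change. With each array centred on its median instead, the median of all tested probes moved to -0.21 in CHIP-/- and -0.18 in WT hearts. Calls over all probes were then 835 higher and 6458 lower in CHIP-/- hearts, beside 3123 higher and 3333 lower with loess. In WT hearts they were 448 higher and 5237 lower, beside 2394 and 2511. On that scale Mid1ip1, Acacb and Mlycd stood at -1.67, -1.07 and -1.05 relative to the median of all probes in CHIP-/- hearts. Scd2 was 0.40 above it but no longer passed (0.20, adjusted p = 0.265), nor did Scd1 (0.01, adjusted p = 0.939). Fasn and Srebf1 turned to falls in CHIP-/- hearts (-0.38, adjusted p = 0.0276, and -0.39, adjusted p = 0.0129). The counts of cell type markers above were not repeated on that scale.

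**Figure D3:**
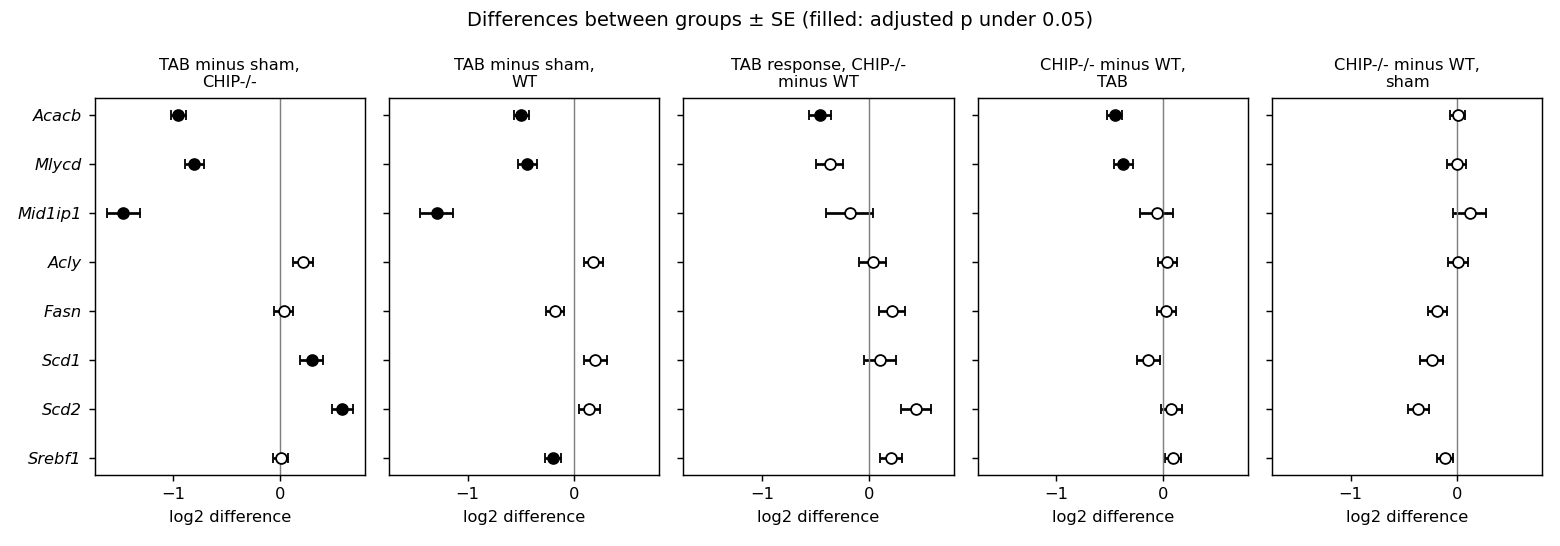
Log2 differences ± SE (horizontal axes) of the 8 tested genes (vertical axis) in the 5 comparisons, with filled points where limma's adjusted p was under 0.05. Acacb is filled in 4 panels, with -0.95 and -0.49 after TAB in CHIP-/- and WT hearts, and no gene is filled in the sham panel.

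Whether the mutant responded differently was tested as the TAB response in CHIP-/- hearts minus that in WT hearts. Acacb passed, with -0.46 (SE 0.10, adjusted p = 0.0113, limma), which is 1 of 8 members against 4.37% of all probes (2.05% lower). It kept its call without each of the 16 arrays in turn. It lost it without the 3 arrays with Y-linked transcripts (-0.41, adjusted p = 0.108), which leaves 2 CHIP-/- sham arrays, and with median centring (-0.50, adjusted p = 0.184). Scd2 had 0.44 (SE 0.14, adjusted p = 0.076) and Mlycd -0.36 (SE 0.13, adjusted p = 0.114), and neither passed. Scd2 did pass without WT sham replicate 3 (0.54, adjusted p = 0.0223) or WT TAB replicate 4 (0.50, adjusted p = 0.042), and Mlycd without CHIP-/- sham replicate 4 (-0.44, adjusted p = 0.042). Both passed without the 3 arrays with high Myl7 (0.55, adjusted p = 0.0467, for Scd2 and -0.52, adjusted p = 0.0422, for Mlycd). Mid1ip1 had -0.18 (SE 0.22, adjusted p = 0.762).

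After TAB, CHIP-/- hearts were compared with WT hearts, using the same TAB arrays as above. Acacb was lower by a difference of -0.45 (SE 0.072, adjusted p = 0.000223, limma) and Mlycd by -0.37 (SE 0.090, adjusted p = 0.00853, limma), a call lost with median centring (-0.39, adjusted p = 0.144). These 2 of 8 members compare with 9.91% of all probes (5.48% lower), and both also did not overlap, against 11.9% of all. Mid1ip1 differed by -0.06 (SE 0.15, adjusted p = 0.875), and the other 5 lay between -0.14 and 0.09. Of 9 cardiomyocyte markers, 6 were lower and 1 higher in this comparison, with a median of -0.36. Over all genes 6.20% were lower and 5.18% higher. The median interaction of these markers was -0.37, with 1 of 9 called lower and none higher, against 2.44% of genes lower. Of 8 fibroblast markers, 5 were higher after TAB and none lower. The part of these cell types in the differences of Acacb and Mlycd was not tested. After sham, none of the 8 members passed, against 0.0341% (5) of all probes. At an unadjusted p under 0.05 (limma) there were 3 members, against 1127 of all 14684 tested probes. They were Scd2 at -0.37, Scd1 at -0.24 and Fasn at -0.19, with adjusted p from 0.18 to 0.624. None of the 29 other settings called a member after sham.

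The genes whose pattern over the 16 arrays was most like each of the 3 most variable members were found by the mean absolute difference of their centred log2 ratios, among 9961 other genes. For Mid1ip1 they were Dbp (0.133), a transcription factor under clock control, Rbfox1 (0.141), a splicing regulator, and Sdha (0.158), a subunit of succinate dehydrogenase. Dbp had differences after TAB of -1.34 in CHIP-/- and -1.09 in WT hearts. For Acacb they were Fitm2 (0.0669), a protein of lipid droplet formation, Slc25a12 (0.0686), a mitochondrial aspartate-glutamate carrier, and Got2 (0.0693), mitochondrial aspartate aminotransferase. For Mlycd they were Klhl24 (0.0757), Cutc (0.0789) and Abcd3 (0.0871), a peroxisomal fatty acid transporter. Likeness here says only that the values ran close to each other on these arrays.

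Neighbouring genes were read from 7 lists, each gene by its brightest probe that passed. Of 42 genes measured, 10 were higher and 11 lower after TAB in CHIP-/- hearts, against 47.0% of 9962 genes called in all (24.1% higher, 22.9% lower). In WT hearts 6 were higher and 10 lower, against 35.6% (18.7% higher, 16.9% lower). After sham no list gene differed between genotypes, against 0.0301% of genes. Between the genotypes after TAB, 1 was higher (5.18% of genes) and 3 lower (6.20%), against 11.4% in all, and 3 of 42 had a lower interaction and none a higher one, against 5.14% of genes (2.44% lower). The gene higher in CHIP-/- than in WT hearts after TAB was Fads3 (0.27), a call lost without any 1 of CHIP-/- TAB replicates 1 and 3 and WT TAB replicates 1, 2 and 3 (adjusted p = 0.0521 to 0.137), and its second probe did not pass (0.23, adjusted p = 0.231). The lower ones were Mlxipl (-0.63), Cpt1b (-0.49) and Ndufab1 (-0.37), for which the 2 other probes gave -0.00073 (adjusted p = 0.998) and 0.04 (adjusted p = 0.885). With median centring the calls of Fads3 (adjusted p = 0.347) and Ndufab1 (adjusted p = 0.0964) were lost. With median centring no gene of any list was called higher in either genotype, so the rises below hold relative to the loess curve.

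The target of malonyl-CoA is carnitine palmitoyltransferase I, whose muscle form Cpt1b fell by 0.86 (adjusted p = 1.6e-08, limma) in CHIP-/- and by 0.34 (adjusted p = 0.00285, limma) in WT hearts. The interaction was -0.52 (adjusted p = 0.0136, limma). A second Cpt1b probe gave -0.61 and -0.36 but an interaction of -0.25 (adjusted p = 0.238), so the interaction call rests on 1 probe. After TAB both probes were lower in CHIP-/- than in WT hearts, the second by -0.36 (adjusted p = 0.00398, limma). Without the 3 arrays with Y-linked transcripts the interaction of the first probe was -0.48 (adjusted p = 0.126). Both probes of the liver form Cpt1a opposed each other in WT hearts, at 0.22 and -0.43, and no direction is given. The rise of its brightest probe was not called without the 3 arrays with high Myl7 (0.25, adjusted p = 0.0557). Cpt1c did not pass the filter.

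Among 10 regulators of lipogenesis, 1 rose and 3 fell in CHIP-/- hearts, and 1 rose and 2 fell in WT hearts. Over all genes 24.1% rose and 22.9% fell in CHIP-/- hearts, and 18.7% and 16.9% in WT hearts. Mlxipl, which encodes the carbohydrate response factor ChREBP, fell by 1.09 (SE 0.082, adjusted p = 3.4e-10, limma) in CHIP-/- and by 0.43 (SE 0.082, adjusted p = 0.00028, limma) in WT hearts. Its interaction was -0.66 (SE 0.12, adjusted p = 0.00201, limma). Mbtps1, the protease that releases SREBPs, rose by 0.26 (adjusted p = 0.00285, limma) and 0.27 (adjusted p = 0.0038, limma), and these turned to -0.23 and -0.14 with median centring. The CHIP-/- rise of Mbtps1 was also lost without the arrays with Y-linked transcripts (0.15, adjusted p = 0.147). Insig2, which holds SREBPs back in the endoplasmic reticulum, fell by 0.33 (adjusted p = 0.00151, limma) in CHIP-/- hearts on its brightest probe, while a second probe gave -0.01. Nr1h2, which encodes LXR beta, fell by 0.28 (adjusted p = 0.0171, limma) in WT hearts, a call lost without the arrays with high Myl7 (-0.17, adjusted p = 0.282). Thrsp, a paralogue of Mid1ip1 singled out after its values were seen, did not pass, at -0.19 (adjusted p = 0.15) in CHIP-/- and -0.21 (adjusted p = 0.127) in WT hearts.

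Malonyl-CoA also feeds a separate fatty acid synthesis in mitochondria, and 3 of its 5 measured genes fell in each genotype with none higher. Over all genes 22.9% fell in CHIP-/- and 16.9% in WT hearts. The 3 genes were Ndufab1, Cbr4 and Mcat in CHIP-/- hearts, and Mcat, Mecr and Cbr4 in WT hearts. Mcat, which loads malonyl units, fell by 0.50 (adjusted p = 7.91e-05, limma) in CHIP-/- and by 0.34 (adjusted p = 0.00519, limma) in WT hearts. Cbr4, a subunit of the ketoacyl reductase, fell by 0.53 and 0.33. Ndufab1, the acyl carrier protein and a complex I subunit, fell by 0.60 (adjusted p = 2.5e-06, limma) in CHIP-/- hearts on its brightest probe, while 2 other probes gave -0.05 and -0.20 and did not pass. In WT hearts the brightest probe gave -0.14 and did not pass, while 1 of the others fell by 0.45 (adjusted p = 0.00454, limma). The Ndufab1 interaction (-0.45, adjusted p = 0.0254, limma) was lost without any 1 of CHIP-/- TAB replicates 1 and 3, CHIP-/- sham replicate 2, WT TAB replicate 1 and WT sham replicate 4, with adjusted p of 0.0532 to 0.0674. It was also lost without the 3 arrays with Y-linked transcripts (-0.39, adjusted p = 0.229) and without those with high Myl7 (-0.49, adjusted p = 0.0636). Mecr, the enoyl reductase, fell by 0.34 (adjusted p = 0.0279, limma) in WT hearts, a call lost without WT TAB replicate 4 (adjusted p = 0.113) or WT sham replicate 2 (adjusted p = 0.134). Without the arrays with high Myl7 the WT falls of Mcat and Cpt1b no longer passed (adjusted p = 0.106 and 0.0971).

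Of 10 elongation and desaturation genes, 5 rose and 1 fell in CHIP-/- hearts and 4 rose and 1 fell in WT hearts. The shares of all genes were 24.1% higher and 22.9% lower in CHIP-/- hearts, and 18.7% and 16.9% in WT hearts. Tecr, the reductase that ends each elongation round, fell by 0.83 (adjusted p = 5.45e-08, limma) and 0.77 (adjusted p = 4.66e-07, limma). Elovl1, an elongase, rose by 0.38 and 0.45, with 0.03 and 0.17 under median centring. Fads3, of the desaturase family, rose by 0.49 (adjusted p = 2.84e-05, limma) in CHIP-/- hearts, while its second probe gave 0.03. Elovl7 rose by 0.36 (adjusted p = 0.000899, limma) in WT hearts.

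Of 9 measured genes of the cholesterol list, which share SREBP regulators with lipogenesis, 4 rose and 1 fell in CHIP-/- hearts. In WT hearts none rose and 2 fell. All genes gave 24.1% higher and 22.9% lower in CHIP-/- hearts, and 18.7% and 16.9% in WT hearts. Without the 3 arrays with Y-linked transcripts the CHIP-/- count was 1 higher and 1 lower, and without those with high Myl7 the WT count was 0 higher and 1 lower. Fdft1, squalene synthase, fell by 0.56 (adjusted p = 2.23e-05, limma) in CHIP-/- and by 0.43 (adjusted p = 0.000786, limma) in WT hearts. Sqle, squalene epoxidase, rose by 0.46 (adjusted p = 0.00664, limma) in CHIP-/- hearts, a call lost without the arrays with Y-linked transcripts (0.34, adjusted p = 0.0926), and had 0.16 (adjusted p = 0.383) in WT hearts. Idi1, an isomerase of the isoprenoid steps, rose by 0.35 (adjusted p = 0.00999, limma) in CHIP-/- hearts, a call lost without CHIP-/- TAB replicate 3 (0.24, adjusted p = 0.0605) and with the deposited log ratios (0.39, adjusted p = 0.104), and had 0.17 (adjusted p = 0.23) in WT hearts. Dhcr7, which makes the last step to cholesterol, fell by 0.23 (adjusted p = 0.0122, limma) in WT hearts, a call lost without WT sham replicate 1 (-0.18, adjusted p = 0.0593) or the 3 arrays with high Myl7 (-0.17, adjusted p = 0.16), and had 0.04 (adjusted p = 0.643) in CHIP-/- hearts. Of 5 genes that supply NADPH or substrate, malic enzyme Me1 fell by 0.38 in CHIP-/- and by 0.48 in WT hearts. The first was lost without the arrays with Y-linked transcripts (adjusted p = 0.0614) and the second without those with high Myl7 (adjusted p = 0.0886). Cytosolic isocitrate dehydrogenase Idh1 fell by 0.40 (adjusted p = 0.000978, limma) in CHIP-/- hearts and had -0.19 (adjusted p = 0.119) in WT hearts. Btd, the single measured biotin gene, did not pass in any of the 5 comparisons.

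**Figure D4:**
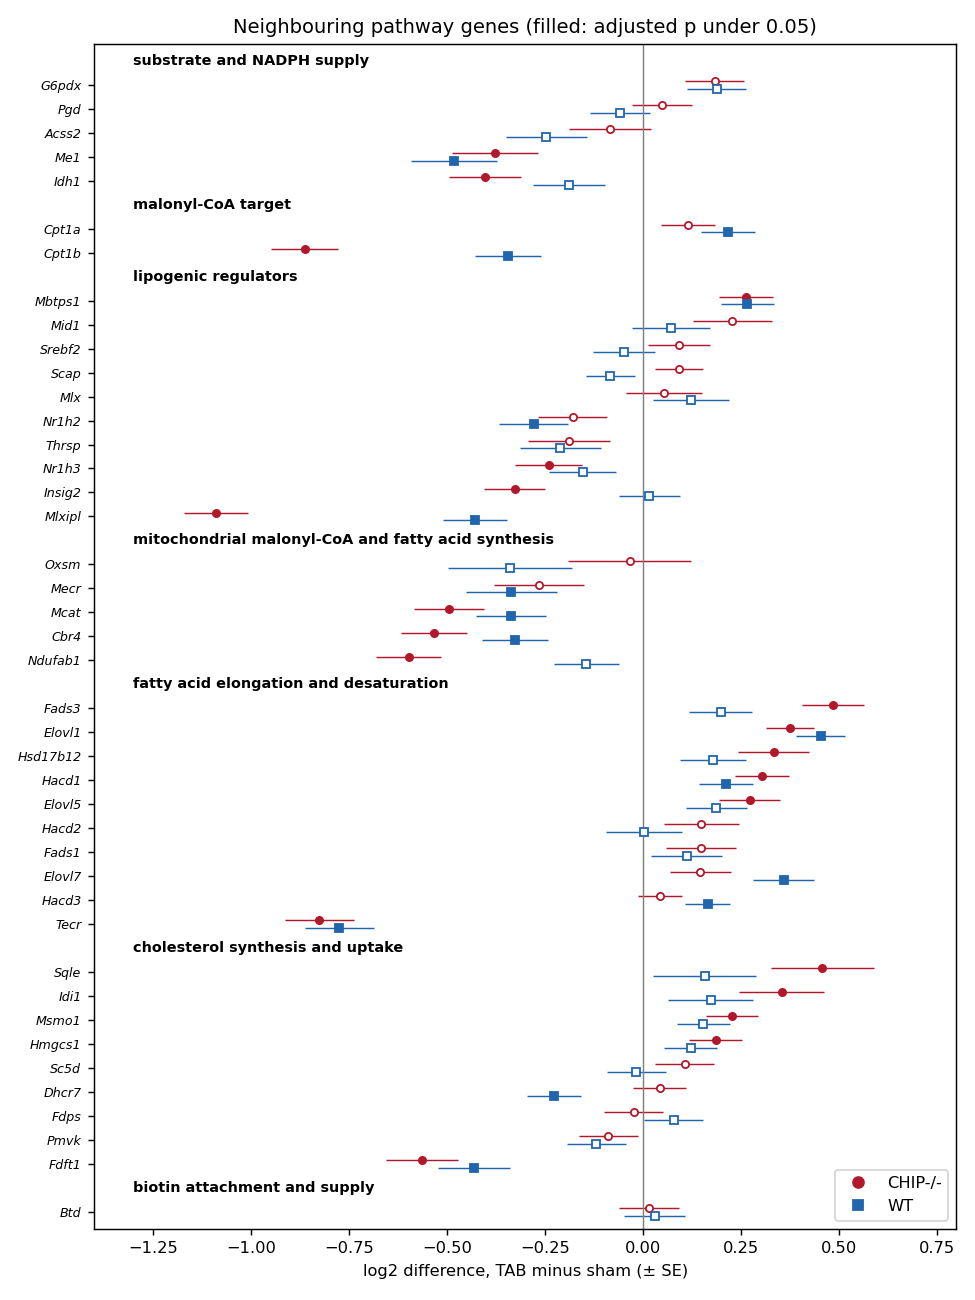
Log2 difference, TAB minus sham, ± SE (horizontal axis) of the 42 measured genes of 7 neighbouring lists (rows), with CHIP-/- hearts as red circles and WT hearts as blue squares, filled where limma's adjusted p was under 0.05. Mlxipl, Cpt1b and Tecr lie farthest to the left in CHIP-/- hearts, at -1.09, -0.86 and -0.83.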

How the data were processed

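Heart RNA of 16 mice was hybridized on two-colour Agilent arrays against a common reference RNA, always with heart in Cy5. Spots were read with Feature Extraction 9.1.3.1, per the file headers. Each deposited scanner file holds every spot's mean signal and median local background as linear intensity, and a log10 ratio of processed signals, which the authors deposited beside them. A deposited matrix of the series holds log2 values for 14298 probes, and each column matched the scanner ratio of its own array with r of at least 0.998. Column medians in it ran from -0.034 to 0.03, and its centring and choice of probes are not stated. The files of the 4 CHIP-/- TAB arrays held signals to 3 significant digits.

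Background was corrected by normexp (offset 50) on mean signals, and log2 ratios were normalized by loess within arrays, with control spots at weight 0 and outlier-marked spots left out. Spots of a probe were averaged. Probes marked well above background for heart RNA on at least 4 arrays, with a value on at least 15, were tested, which left 14684 of 41174. One model with 4 group means was fitted to all 16 arrays with limma 3.58.1 in R 4.3.3 with an intensity trend. Adjusted p-values are Benjamini-Hochberg over all tested probes, with a threshold of 0.05. The code was tested on simulated data. Precision is limited by 4 arrays per group. Probes took names from RefSeq by accession (22951), symbol (6659) or synonym (3109), or kept the file's name (8455).

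The members and all lists were chosen with earlier results of these data known. Some genes of the lists are not reported here and are left out of their counts. The text names every member, at most the 3 called genes with the largest difference per list and comparison (all called where a list has 3 or fewer genes), and the 3 genes most like each of the 3 members that varied most. Permutation tests on pairs of genes were exact. Acacb minus Acaca was planned and not run, because no Acaca probe passed. Alternatives were other normalizations, the deposited ratios, other filters, a replicate block and left-out arrays. RefSeq promoter windows of Scd1 and Scd2, and probe sequences, were not used here.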

Additional observations from a re-analysis of the deposited data

Results flagged for a closer look

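The TAB response differed between the genotypes, by the interaction term of the limma model, for 1 member and 3 neighbouring genes. Acacb had an interaction of -0.46 on the log2 scale, with a difference after TAB of -0.95 in CHIP-/- hearts and -0.49 in WT hearts. Mlxipl had -0.66, Cpt1b -0.52 and Ndufab1 -0.45. The second probe of Cpt1b (-0.25) and the 2 other probes of Ndufab1 (0.01 and 0.24) did not pass. Acacb and Mlxipl had only 1 tested probe each, so all 4 interaction calls rest on 1 probe each. None of the 32 groups of 4 arrays (8 members in 4 groups) held an array far from the others by Dixon's criterion.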

How the results depend on the processing

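Under every setting tried, Mid1ip1 and Acacb fell after TAB in both genotypes and passed, at -1.88 to -1.32 and -1.28 to -0.90 in CHIP-/- hearts and -1.64 to -1.08 and -0.78 to -0.45 in WT hearts. Mlycd did so in CHIP-/- hearts (-1.26 to -0.74), and in WT hearts (-0.81 to -0.29) with the exception given in the report. The cause of the changes below was not tested. With median centring, signs turned for Fasn (-0.38) and Srebf1 (-0.39) in CHIP-/- hearts, for Mbtps1 in CHIP-/- (-0.23) and WT hearts (-0.14), and for Cpt1a (-0.035) in WT hearts. With it, 1 member and 501 probes were called after TAB between genotypes, 29 probes after sham, and 0 members and 198 probes in the interaction. Without the 3 arrays with high Myl7, 3108 probes were called after TAB in WT, 22 between genotypes after sham, and 3 members in the interaction. Without the 3 arrays with Y-linked transcripts, 14 probes were called after sham, and 0 members and 111 probes in the interaction. Other counts after sham, beside 5, were 2 with the deposited log ratio and 2 with the series table, 8 with no filter on dim probes, 3 with the brightest probe per gene, 47 with only the groups compared and 8 with outlier spots kept. Without an intensity trend the interaction had 390 probes, beside 641. Leaving out each array in turn gave 4 to 6 members and 5830 to 6530 probes after TAB in CHIP-/-, 3 to 5 and 4190 to 4982 after TAB in WT, 0 and 2 to 20 after sham (2 without CHIP-/- sham replicate 1 or 3 and 20 without WT sham replicate 3), 2 and 905 to 1589 after TAB between genotypes (905 without CHIP-/- TAB replicate 3 and 968 without WT TAB replicate 1, beside 1455), and 1 to 2 and 371 to 875 in the interaction, whose lowest counts came without CHIP-/- TAB replicate 3 (371), WT sham replicate 4 (379) and CHIP-/- sham replicate 2 (411). The pair differences ran from -0.21 to -0.10 and -0.11 to -0.01 for Acacb minus Mlycd in CHIP-/- and WT hearts, and from -0.37 to -0.20 and -0.07 to 0.15 for Scd1 minus Scd2. No second passing probe existed for any pair. With a replicate block, 6 and 3 members were called after TAB in CHIP-/- and WT hearts, since Acly in CHIP-/- (0.21, adjusted p = 0.0321) was gained and Srebf1 in WT (adjusted p = 0.0523) was lost. Deviations of same-numbered arrays correlated at -0.171 to 0.153 over 24 pairs, and those of differently numbered arrays at -0.145 to 0.224 over 72 pairs. A correlation over 0.1 was found in 4 of the 24 and 4 of the 72. Such values cannot show whether arrays with the same number shared a condition, and the labels do not say. Values of Acly and Scd1 are limited by heart signals close to background.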
